A study of Mus musculus with 11 samples.

Results

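The immediate early genes described here are Fos, Fosb, Jun, Junb, Atf3, Egr1, Nr4a1, Ier2, Dusp1 and Zfp36, measured in mouse epididymal fat. They were taken by name, with every probe set that the array annotation gives to one of them alone. This gave 11 of the 45101 probe sets of the array, with 2 for Jun and a single probe set for each other gene. Of the 10 genes, 9 were among the 12709 genes bright enough to be tested, and Fosb was not.

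Immediate early genes are transcribed within minutes of a stimulus by transcription factors that are already in the cell, such as serum response factor and CREB, once kinases have phosphorylated them or their partners. Their transcripts are short-lived, and many of the proteins are transcription factors that switch on a later wave of genes. In fat they are known to respond to insulin, catecholamines and inflammatory signals, and in any tissue they also respond to handling and dissection.

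Each array held RNA from epididymal fat, a visceral fat depot, of a male C57BL/6 mouse aged 3 months and kept on chow. The 4 wild-type mice (B1+/+) carry the kinin B1 receptor, a G protein-coupled receptor encoded by Bdkrb1, and the 4 knockout mice (B1-/-) lack it. The 3 fat rescue mice (aP2B1-B1-/-) carry the same deletion together with a B1 transgene under the promoter of aP2, another name of Fabp4. This promoter is active in fat cells and is also known to be active in macrophages. The labels call the arrays of a genotype biological replicates and say no more about litters or days, so each p-value measures the spread between these arrays.

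The values are signals on a linear scale without a unit, scaled by the authors to a common trimmed mean of 200. Signals of Bdkrb1 ran from 3.7 to 32.2 over wild-type mice, from 4.8 to 29.7 over knockout mice and from 57.8 to 73.4 over fat rescue mice. The sources do not place its probe set inside or outside the deletion, and it is no check of the knockout label. Adipocyte markers were bright in all 11 arrays (Adipoq 15589 to 23627, Fabp4 18598 to 29006). Of 8 listed epididymis markers 6 were found on the array, and none of these exceeded 40.6. Array medians ran from 41.3 to 45.1 in wild type, 46.5 to 48.8 in knockout and 45.6 to 46.6 in fat rescue. On the leading principal component of all genes tested (27.3% of the variance), wild-type array 1 and fat rescue array 1 lay away from the rest, with scores of 45.4 and 34.1 against -26.5 to 15.6 in the other 9 arrays. In bulk tissue, fewer cells of a type and less RNA per cell cannot be told apart.

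The upstream sequences of 5 of these genes are shown because they share letters of the cyclic AMP response element (CRE), the site that CREB and ATF proteins bind. The RefSeq promoter table (GRCm38.p6) matched 8 of the 10 genes, all but Egr1 and Ier2. Its windows run from 250 bases before to 50 bases after a start site given for the gene. Each stretch runs 5′ to 3′ on the strand of its gene and ends at the base before that start. Capitals mark the CRE core TGACG, its reverse complement CGTCA, or the full CRE TGACGTCA. Junb is read from chr8:84978749-84978878 on the minus strand, and Fos from chr12:85473740-85473889 on the plus strand. Nr4a1 is read from chr15:101266726-101266845 (plus), Atf3 from chr1:191183334-191183393 (minus), and Dusp1 from chr17:26508473-26508672 (minus). The start site used for Nr4a1 lies inside the gene, whose RefSeq span is chr15:101253902-101274795.
Junb: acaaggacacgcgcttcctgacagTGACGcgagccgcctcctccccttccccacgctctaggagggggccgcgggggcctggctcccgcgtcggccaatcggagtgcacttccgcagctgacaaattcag
Fos: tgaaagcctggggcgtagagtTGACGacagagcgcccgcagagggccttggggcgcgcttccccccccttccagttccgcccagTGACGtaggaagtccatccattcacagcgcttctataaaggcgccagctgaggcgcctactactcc
Nr4a1: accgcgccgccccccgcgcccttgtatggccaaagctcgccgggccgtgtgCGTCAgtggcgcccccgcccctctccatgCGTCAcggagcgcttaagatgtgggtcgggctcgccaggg
Atf3: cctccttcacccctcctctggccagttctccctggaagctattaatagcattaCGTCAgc
Dusp1: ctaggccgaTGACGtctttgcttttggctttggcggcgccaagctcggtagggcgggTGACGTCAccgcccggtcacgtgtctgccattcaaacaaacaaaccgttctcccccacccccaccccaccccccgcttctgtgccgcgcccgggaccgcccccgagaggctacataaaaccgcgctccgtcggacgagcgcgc
Read on both strands, TGACG was present in 6 of the 8 windows (Junb, Fos, Nr4a1, Atf3, Dusp1 and Fosb), and in 20.8% of all 32851 windows of the table. The full CRE, which contains the core on both strands, was found in the window of Dusp1 alone among the 8, and in 1.79% of all. The EGR site GCGGGGGCG was in the windows of Fosb, Zfp36 and Nr4a1 (2.91% of all), and the core of the serum response element in that of Zfp36 (1.63% of all). The AP-1 site, TGACTCA or TGAGTCA, was in 0 of the 8 windows and in 5.20% of all. These matches describe letters in a window and not binding, and sites outside the windows were not searched.

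As a group these genes had higher mean signals in knockout and fat rescue fat than in wild-type fat, most clearly Junb, Egr1, Ier2 and Atf3, while Dusp1 and Zfp36 differed little. No member passed the threshold, an adjusted p (Benjamini-Hochberg over all 12709 genes) of 0.05 in limma's moderated test, in any comparison. In knockout against wild type 0 of 9 members passed, where 0.0393% of all genes did. At an unadjusted p of 0.05 there were 5 members (Junb, Egr1, Ier2, Nr4a1 and Atf3), all higher, where 3.94% of all genes were higher at that level. The count was 3 without wild-type array 1 or 4 or knockout array 1 or 4, 3 with quantile normalization and 2 when arrays were centred on their medians. With that centring the median log2 difference over all genes was -0.13, beside 0.02 without it. Knockout and wild-type arrays did not overlap for 3 members (Junb, Egr1 and Ier2), all higher in knockout, where 1.98% of all genes were apart in that direction. The genes were chosen with earlier results of these data known, so the shares of all genes are a description and no test of the group.

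**Figure D1:**
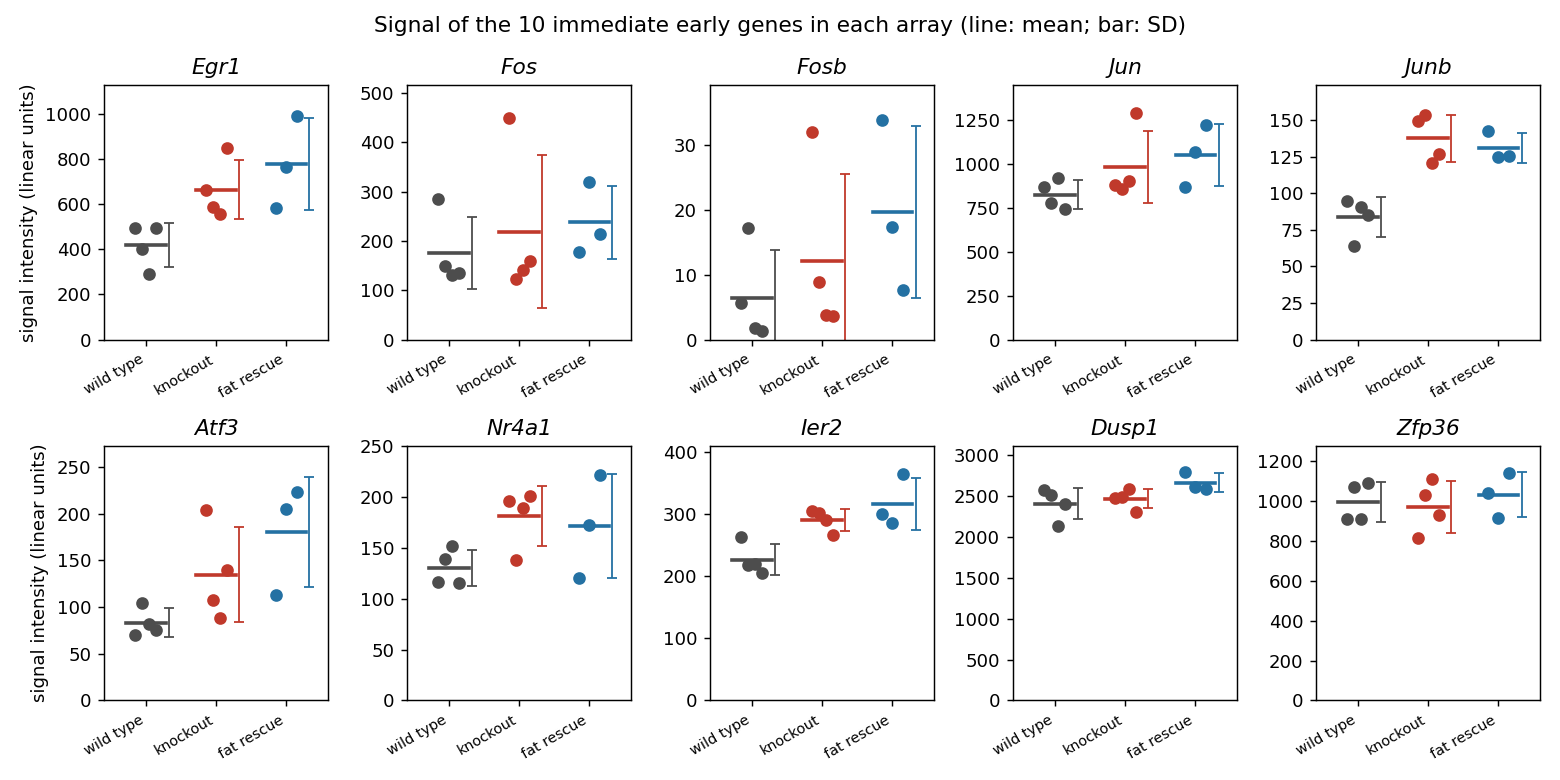
Signal of the 10 genes on each array, on a linear scale from 0 with its own range for each gene; points are arrays, horizontal lines means and vertical bars SD (n = 4 wild type, 4 knockout, 3 fat rescue), and the bars of Fosb are cut at 0. Junb, Egr1 and Ier2 show every knockout and fat rescue array above all 4 wild-type arrays, while all Fosb values stay at or below 33.9.

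The Jun and Fos families form AP-1, a dimeric transcription factor, and Junb is the member of the Jun family that often restrains growth-promoting Jun. Junb signals were 94.4, 64.2, 90.6 and 85.3 on the 4 wild-type arrays, 149.1, 153.3, 120.9 and 126.4 on the 4 knockout arrays and 142.4, 124.8 and 125.2 on the 3 fat rescue arrays. All 7 arrays without the endogenous receptor were above the 4 wild-type arrays, and knockout and fat rescue overlapped. Wild-type signals averaged 83.6 ± 13.5 (SD, n = 4), knockout signals 137 ± 16.2 (n = 4) and fat rescue signals 131 ± 10.05 (n = 3). The mean of knockout was 0.72 ± 0.16 (SE, log2 scale) above that of wild type, a factor of 1.65, the smallest p of the 9 members and rank 19 of all genes, which did not pass in limma (adjusted p = 0.315). The two-sided exact permutation p was 0.0286, the smallest that 4 against 4 arrays can give. Fat rescue exceeded wild type by 0.66 ± 0.17 (limma adjusted p = 0.350), and differed from knockout by -0.07 ± 0.17 (95% interval -0.43 to 0.30).

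Fos, the partner of Jun in AP-1, varied more between mice of a genotype than between genotypes. Its signals were 285.2, 150.2, 131.6 and 135.4 on the 4 wild-type arrays, 450.2, 123.6, 140.5 and 160.1 on the 4 knockout arrays and 178.5, 319.9 and 214.5 on the 3 fat rescue arrays. Knockout array 1 was the brightest and knockout array 2 the dimmest of all 11, and the 3 genotypes overlapped. The difference of knockout from wild type was 0.18 ± 0.37 (limma adjusted p = 0.930), and it was -0.24 without knockout array 1, or 0.44 when wild-type array 1 was left out. Fat rescue differed from wild type by 0.47 ± 0.40 (limma adjusted p = 0.792), or by 0.24 without fat rescue array 2 and 0.73 without wild-type array 1. Fos spans chr12:85473890-85477274 in the RefSeq table, and Bdkrb1 chr12:105604091-105605511.

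Fosb, a relative of Fos, was dim on every array. Its signals were 5.6, 17.2, 1.8 and 1.3 on the 4 wild-type arrays, 32.0, 8.8, 3.8 and 3.7 on the 4 knockout arrays and 33.9, 17.4 and 7.6 on the 3 fat rescue arrays, all below the lowest array median of 41.3. Tested with all probe sets singly, its log2 differences were 1.03 ± 0.94 for knockout and 2.09 ± 1.01 for fat rescue against wild type, and neither passed (limma adjusted p = 0.859 and 0.751). At signals this low they are no exact sizes.

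Jun, which encodes the c-Jun subunit of AP-1, was read by 2 probe sets that gave different results. The brighter gave 865.5, 776.0, 917.2 and 741.7 on the wild-type arrays, 880.2, 856.9, 904.5 and 1289.8 on the knockout arrays and 867.7, 1064.6 and 1220.6 on the fat rescue arrays. Knockout array 4 stood above the other 3 knockout arrays, and all genotypes overlapped. Knockout differed from wild type by 0.24 ± 0.14 and fat rescue by 0.34 ± 0.15 (limma adjusted p = 0.740 and 0.599). The first was 0.099 without knockout array 4, and the second 0.23 without fat rescue array 3. With the dimmer probe set, whose signals ran from 330.1 to 463.6, these differences were 0.01 ± 0.13 and -0.14 ± 0.14, and the sign of the second was thus the opposite.

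Atf3, a stress-inducible factor that binds CRE-like sites, had the largest difference of the 9 members between fat rescue and wild type. Its signals were 69.8, 104.8, 82.1 and 75.7 on the 4 wild-type arrays, 204.0, 107.0, 87.9 and 140.1 on the 4 knockout arrays and 113.2, 205.3 and 222.9 on the 3 fat rescue arrays. Every fat rescue array exceeded all wild-type arrays, whereas knockout array 3 lay within the wild-type range. The mean was 83.1 ± 15.3 (SD, n = 4) for wild type, 135 ± 51.0 (n = 4) for knockout and 180.5 ± 58.9 (n = 3) for fat rescue. The difference of fat rescue from wild type was 1.08 ± 0.29, a factor of 2.11 (limma adjusted p = 0.40), and that of knockout 0.64 ± 0.27 (adjusted p = 0.683), or 0.42 without knockout array 1.

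Egr1 encodes a zinc finger transcription factor that serum response factor switches on. Its signals were 493.4, 402.6, 290.0 and 493.0 on the 4 wild-type arrays, 664.9, 588.9, 558.4 and 846.9 on the 4 knockout arrays and 581.4, 763.2 and 990.6 on the 3 fat rescue arrays. The lowest of the 7 arrays without the endogenous receptor exceeded the highest wild-type array. The wild-type mean was 419.8 ± 96.5 (SD, n = 4), that of knockout 665 ± 129 (n = 4) and that of fat rescue 778 ± 205 (n = 3). Knockout exceeded wild type by 0.68 ± 0.20 (a factor of 1.60; limma adjusted p = 0.566; two-sided exact permutation p = 0.0286). Fat rescue exceeded wild type by 0.89 ± 0.21, a factor of 1.85, or 0.70 without fat rescue array 3 (limma adjusted p = 0.320 with all arrays). An exact permutation test of 3 against 4 arrays cannot go below 0.0571, the value found here.

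Nr4a1, an orphan nuclear receptor induced by cyclic AMP and other stimuli, overlapped between all genotypes. Its signals were 116.2, 138.7, 151.6 and 115.9 on the 4 wild-type arrays, 196.5, 137.7, 188.9 and 201.5 on the 4 knockout arrays and 120.3, 172.5 and 221.9 on the 3 fat rescue arrays. Knockout array 2 and fat rescue array 1 lay within the wild-type range, and the other 5 arrays without the endogenous receptor above it. The difference from wild type was 0.47 ± 0.19 in knockout and 0.36 ± 0.21 in fat rescue (limma adjusted p = 0.683 and 0.675). The second was 0.15 without fat rescue array 3 and 0.59 without fat rescue array 1.

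Ier2, which encodes a short-lived nuclear protein, was apart from wild type in knockout and in fat rescue. Its signals were 262.1, 217.7, 218.5 and 205.5 on the 4 wild-type arrays, 304.4, 302.0, 290.4 and 265.6 on the 4 knockout arrays and 299.0, 285.6 and 364.1 on the 3 fat rescue arrays. All 7 arrays without the endogenous receptor were above the 4 wild-type arrays, although knockout array 4 exceeded wild-type array 1 by only a small margin. Mean signals were 226 ± 24.8 (SD, n = 4), 291 ± 17.8 (n = 4) and 316 ± 42.0 (n = 3) in the order wild type, knockout, fat rescue. In the RefSeq table Ier2 spans chr8:84661331-84662852 and Junb chr8:84976909-84978748. Against wild type the difference was 0.37 ± 0.11 (a factor of 1.29) for knockout and 0.48 ± 0.12 (a factor of 1.40) for fat rescue (limma adjusted p = 0.574 and 0.339).

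Dusp1 and Zfp36 act as brakes on the same signals. Dusp1, a phosphatase that switches off MAP kinases, read 2139.5 to 2574.9 in wild type, 2309.7 to 2592.0 in knockout and 2591.0 to 2802.1 in fat rescue. Its difference from wild type was 0.04 ± 0.08 in knockout and 0.15 ± 0.08 in fat rescue (limma adjusted p = 0.931 and 0.669), and the knockout value, with a 95% interval of -0.13 to 0.21, became -0.11 when arrays were centred on their medians. Zfp36 encodes tristetraprolin, which binds AU-rich elements and speeds the decay of cytokine mRNAs. It read 908.1 to 1091.3 in wild type, 812.8 to 1111.9 in knockout and 915.5 to 1142.1 in fat rescue, with full overlap. Its differences from wild type were -0.04 ± 0.11 in knockout (95% interval -0.28 to 0.20) and 0.05 ± 0.12 in fat rescue (limma adjusted p = 0.952 and 0.941).

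**Figure D2:**
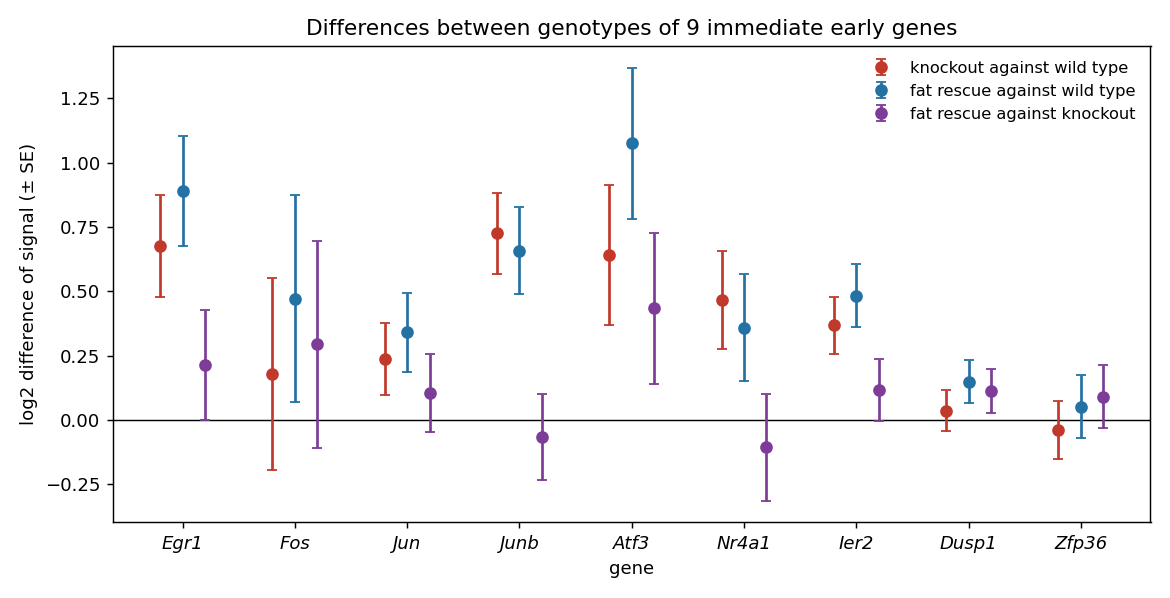
Log2 differences of signal for the 9 tested genes in the 3 comparisons; points are limma estimates and bars SE over the fit of 11 arrays. Atf3 in fat rescue against wild type is highest at 1.08, and the bars of Dusp1 and Zfp36 stay close to 0.

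In fat rescue against wild type 0 of 9 members passed, where 0.0157% of all genes did. At an unadjusted p of 0.05 there were 5 members (Egr1, Ier2, Junb, Atf3 and Jun), all higher, where 4.6% of all genes were higher. Groups of arrays did not overlap for 5 members (Egr1, Junb, Ier2, Atf3 and Dusp1), all higher in fat rescue, where 5.74% of all genes were. The median difference over the 9 members was 0.47, beside 0.03 over all genes tested. For knockout against wild type it was 0.37, beside 0.02, with 8 of 9 members higher where 6825 of 12709 genes were higher. The comparisons with wild type share the 4 wild-type arrays and are set side by side, not as separate evidence. Without wild-type array 1 and fat rescue array 1, which lay away from the rest, fat rescue exceeded wild type by 1.17 for Egr1, 0.66 for Junb, 0.59 for Ier2 and 1.3 for Atf3. Knockout then exceeded wild type by 0.76 for Egr1, 0.79 for Junb and 0.44 for Ier2.

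Fat rescue against knockout asks whether the fat transgene goes with a return towards wild type. No member was called (0 of 9, where 0% of all genes were), and 0 members had an unadjusted p under 0.05, where 3.81% of all genes did. That unadjusted count was 2 without knockout array 1 and 1 without fat rescue array 1. No member's arrays were apart between the genotypes, where 4.93% of all genes were. The median difference was 0.11, beside 0.01 over all genes, with Junb (-0.07) and Nr4a1 (-0.11) below 0 and the other 7 above. Without fat rescue array 3 that median was 0.015. For Egr1 the 95% interval ran from -0.25 to 0.68, for Ier2 from -0.15 to 0.38 and for Atf3 from -0.20 to 1.07. For Nr4a1 the interval ran from -0.55 to 0.34 and for Fos from -0.58 to 1.17. For Junb it ran from -0.43 to 0.30. The knockout differences from wild type were 0.68 for Egr1, 0.37 for Ier2, 0.64 for Atf3 and 0.72 for Junb. They were 0.47 for Nr4a1 and 0.18 for Fos. These differences carry their own error and share the knockout arrays with the intervals. Setting them beside the intervals therefore cannot decide whether a member returned fully to the wild-type mean. Fat rescue against wild type compares these means directly. Its 95% intervals, not adjusted for the number of genes, were 0.29 to 1.02 for Junb and 0.42 to 1.35 for Egr1. For Ier2 the interval was 0.22 to 0.74 and for Atf3 0.44 to 1.71, also above 0. Those of Nr4a1 (-0.09 to 0.81) and Fos (-0.40 to 1.35) held 0. After adjustment no member passed in that comparison.

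An F test over the 3 genotypes called 0 of 9 members, where 0.0393% of all genes passed. Junb had the smallest p (rank 30 of all genes, limma adjusted p = 0.376), followed by Egr1, Ier2 and Atf3 (adjusted p = 0.50, 0.515 and 0.636). These 4 were the members with an unadjusted p under 0.05, where 6.41% of all genes had one.

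The members were then compared array by array, as log2 deviation from the wild-type mean. The median deviation over the 9 members was between -0.12 and 0.10 in the 4 wild-type arrays. It was 0.60 in knockout array 1, 0.09 in array 2, 0.16 in array 3 and 0.61 in array 4, and between 0.22 and 0.60 in fat rescue. Atf3, Egr1, Junb and Nr4a1 were at or above the median in both knockout array 1 and knockout array 4. Fos was at 1.44 in array 1 and -0.05 in array 4, and Jun at 0.10 in array 1 and 0.65 in array 4. In knockout array 2 Junb was at 0.89 although Fos was at -0.43 and Nr4a1 at 0.09. Fat rescue array 3 held the highest Egr1 (1.27), Atf3 (1.44), Nr4a1 (0.77) and Ier2 (0.69) of the 11 arrays.

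**Figure D3:**
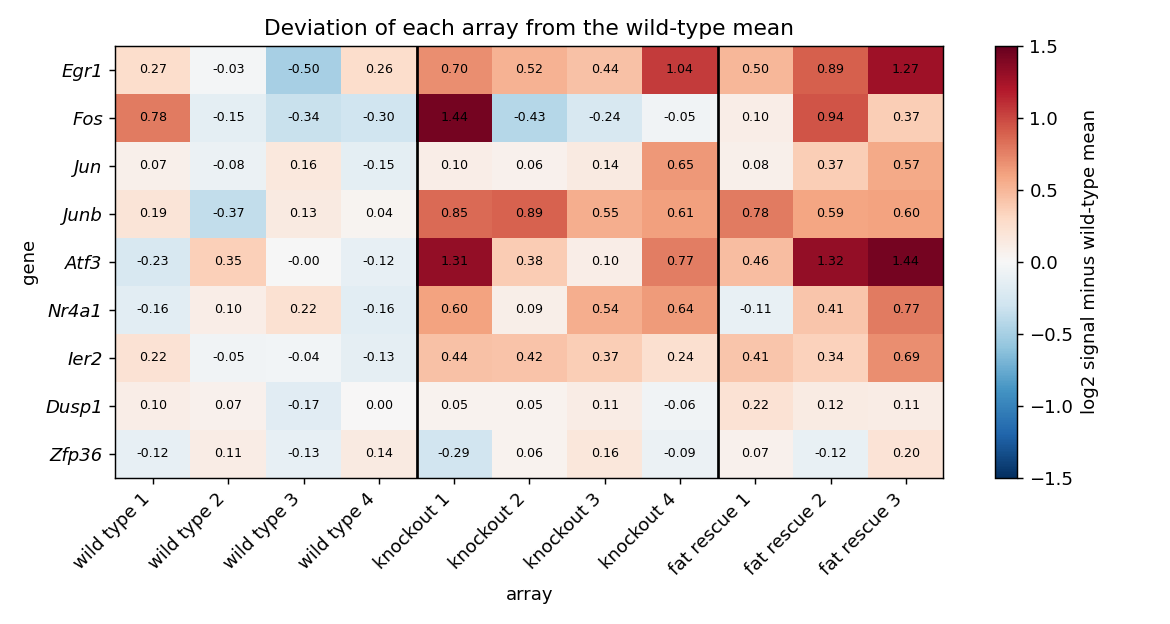
Log2 signal of the 9 tested genes on each of the 11 arrays minus the wild-type mean, with genes as lines of the map, arrays as columns and black lines between genotypes. Junb, Egr1, Ier2, Atf3 and Jun are above 0 in all 7 knockout and fat rescue arrays, while Fos ranges from -0.43 to 1.44 among the knockout arrays.

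Agreement of the genes across arrays was measured by Pearson's r for each of the 36 pairs of the 9 members over 11 arrays. Pooled over genotypes, the median r was 0.41 and 15 of 36 pairs reached 0.5, beside 7.69% of all pairs of genes tested. After the mean of each genotype was removed, the median r was 0.09 (0.004 for all gene pairs) and 3 of 36 pairs reached 0.5, which is 8.33% beside 10.1% of all pairs. The median was -0.10 without fat rescue array 3. Within genotypes the share of strongly correlated pairs was thus near the background. The macrophage markers, in the same arrays, had a median r of 0.83 with 45 of 45 pairs at or above 0.5.

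The highest pair within genotypes was Jun with Nr4a1, with r = 0.69 and rho = 0.80 (two-sided exact permutation within genotypes, p = 0.0582 and 0.0194; adjusted over 36 pairs 0.650 and 0.442). Without the 2 arrays farthest from the median of Jun, r was 0.64. Atf3 with Nr4a1 reached 0.67 (rho 0.71) and Fos with Atf3 0.56 (rho 0.74), with exact permutation p for r of 0.0903 and 0.139. The lowest was Fos with Zfp36 at r = -0.74 and rho = -0.52 (exact permutation p = 0.0286 and 0.167, adjusted 0.620 and 0.641). Without the 2 arrays farthest from the median of Fos, r was -0.52. Jun with Dusp1 was at r = -0.64 and rho = -0.57 (exact permutation p = 0.0344 and 0.0911, adjusted 0.620 and 0.547). No pair passed after adjustment within genotypes. Pooled over genotypes, Junb with Ier2, Egr1 with Atf3 and Jun with Nr4a1 had an adjusted permutation p of 0.0323 for rho. For r their adjusted permutation p was 0.0587. Pooled values also hold the differences between genotypes. Junb, whose groups were apart, had a mean r of -0.13 to the other members, and Egr1 one of 0.22.

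**Figure D4:**
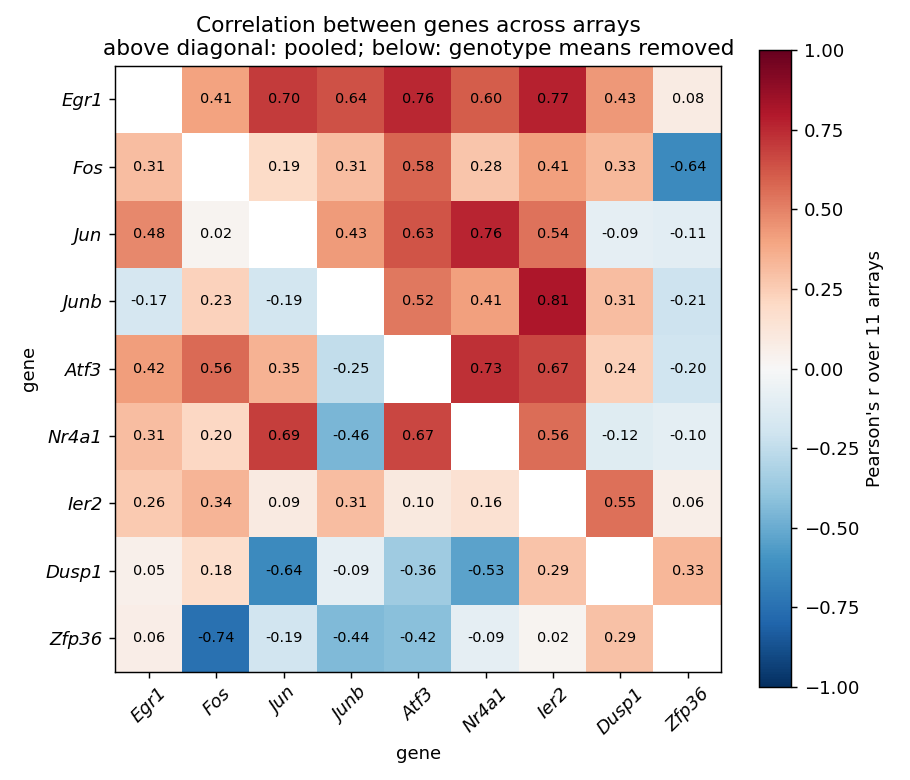
Pearson's r between the 9 tested genes over 11 arrays, pooled above the diagonal and after removal of genotype means below it. The pooled median of 0.41 drops to 0.09 below the diagonal, where Jun with Nr4a1 (0.69) and Fos with Zfp36 (-0.74) are the extremes.

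Genes outside the list that varied most like the members within genotypes were Numb (mean r 0.38), Ears2 (0.38), Slc40a1 (0.38), Slc12a5 (0.37), Gimap6 (0.36) and Samd4b (0.36), over 11 arrays. Numb encodes an endocytic adaptor that antagonizes Notch, and Slc40a1 the iron exporter ferroportin. Numb and Samd4b had r above 0 with only 6 of the 9 members. None of the 6 genes passed in any comparison. They head a ranking of all genes tested on these same arrays, and how high such a maximum runs by chance was not tested.

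A wider list of other immediate early and early response genes gave smaller medians against wild type than the 9 members. Of its 53 genes 49 were measured, of which 32 had a higher mean in knockout than in wild type (median log2 difference 0.08), 41 in fat rescue than in wild type (0.31) and 39 in fat rescue than in knockout (0.16), and none passed. Zfp36l1, a relative of Zfp36, read 1355.8 to 1575.7 in wild type and 1809.8 to 1943.4 in knockout, which did not overlap (0.40 ± 0.10, limma adjusted p = 0.424). Ier5, an immediate early gene linked to the heat shock response, read 112.2 to 179.0 in wild type and 211.9 to 362.4 in knockout (0.87 ± 0.23, limma adjusted p = 0.479). These were the 2 of the 49 genes apart and higher in knockout, where 1.98% of all genes were. In fat rescue both overlapped wild type, with lowest signals of 1493.9 for Zfp36l1 and 178.4 for Ier5. Plk2, a polo-like kinase gene, differed by 0.45 ± 0.13 in knockout and 0.74 ± 0.14 in fat rescue (limma adjusted p = 0.557 and 0.15). Rhob, a small GTPase gene of the early response, was at -0.27 ± 0.11 in knockout (limma adjusted p = 0.683).

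Of 32 listed kinases and transcription factors upstream of these genes, 26 were measured and none was called. Means were higher than in wild type for 20 of 26 in knockout (median difference 0.06), beside 6825 of all 12709 genes, and for 20 of 26 in fat rescue (0.09), beside 7079 of all 12709. Mef2c, a transcription factor that acts on Jun and Nr4a1, was at 0.24 ± 0.10 in knockout and 0.55 ± 0.11 in fat rescue (limma adjusted p = 0.683 and 0.186), and Creb1, which encodes CREB, at 0.20 ± 0.09 in knockout. Heat shock genes, which respond to protein damage, had a median of -0.05 in knockout with 8 of 18 higher. Cryab, a small heat shock protein gene, was at -0.47 ± 0.20 (limma adjusted p = 0.683). Clock genes, whose levels follow the hour of the day, had a median of -0.07 with 6 of 14 higher, with Per2 at -0.30 ± 0.15 and Per3 at 0.28 ± 0.14.

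Markers of other cells also differed in their means. All 10 macrophage markers were measured, and all 10 had higher means than in wild type both in knockout (median 0.25) and in fat rescue (0.39), with 0 passing. Of all genes, 53.7% and 55.7% were higher. At an unadjusted p of 0.05 in limma, 1 marker was higher in knockout and 4 in fat rescue, where 3.94% and 4.6% of all genes were. Arrays were apart and higher for 0 markers in knockout and 5 in fat rescue, where 1.98% and 5.74% of all genes were. The markers varied together within genotypes (median r 0.83), so they are not 10 separate observations. Their summed signal was 13941 to 19815 in wild type, 15375 to 29537 in knockout and 19852 to 23922 in fat rescue. Their median log2 deviation from the wild-type mean was 0.09, -0.10 and 0.20 in knockout arrays 2, 3 and 4. It was 0.81 in knockout array 1, which also had the highest sum. Without that array knockout and wild type differed by 0.68 for Junb, 0.67 for Egr1, 0.34 for Ier2, 0.42 for Nr4a1, 0.42 for Atf3 and -0.24 for Fos, and 3 members in place of 5 had an unadjusted p under 0.05. Mesothelial markers, of the cells that cover the fat pad, had 7 of 8 higher in knockout (0.15) and 7 of 8 in fat rescue than in wild type (0.39), with summed signals of 2818 to 4683, 4119 to 5397 and 5018 to 5613 in wild type, knockout and fat rescue. At an unadjusted p of 0.05 against wild type, 0 of 8 mesothelial markers were higher in knockout and 4 in fat rescue. Arrays were apart and higher for 0 and 3 of them. The summed signal of neutrophil and mast cell markers was 2865 in fat rescue array 1 beside 516.3 to 944.2 in the other 10 arrays. The neutrophil gene S100a8 read 1404.3 on that array and 135.4 to 320.8 on the others, whereas the mast cell markers Cpa3, Mcpt4 and Kit lay within the range of the other arrays. Against wild type, the knockout medians of the other lists were -0.06 for endothelial, 0.13 for fibroblast, -0.17 for smooth muscle and pericyte, 0.29 for lymphocyte and 0.08 for neutrophil and mast cell markers, and those of fat rescue 0.13, 0.06, 0.01, 0.25 and 0.23. The part of these cells in the differences was not tested.

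Adipocyte markers had 0 of 8 higher in knockout than in wild type (median -0.18), and 1 of 8 higher in fat rescue than in wild type (-0.10). Actb signals of the 3′ probe set over the 5′ probe set, a measure of RNA integrity, gave ratios of 1.65 to 1.83 in wild type, 1.53 to 1.69 in knockout and 1.47 to 1.56 in fat rescue. Wild type and fat rescue thus did not overlap in this ratio, while Gapdh ratios (0.865 to 1.03) overlapped in all genotypes. The part of RNA quality in the differences was not tested.

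**Figure D5:**
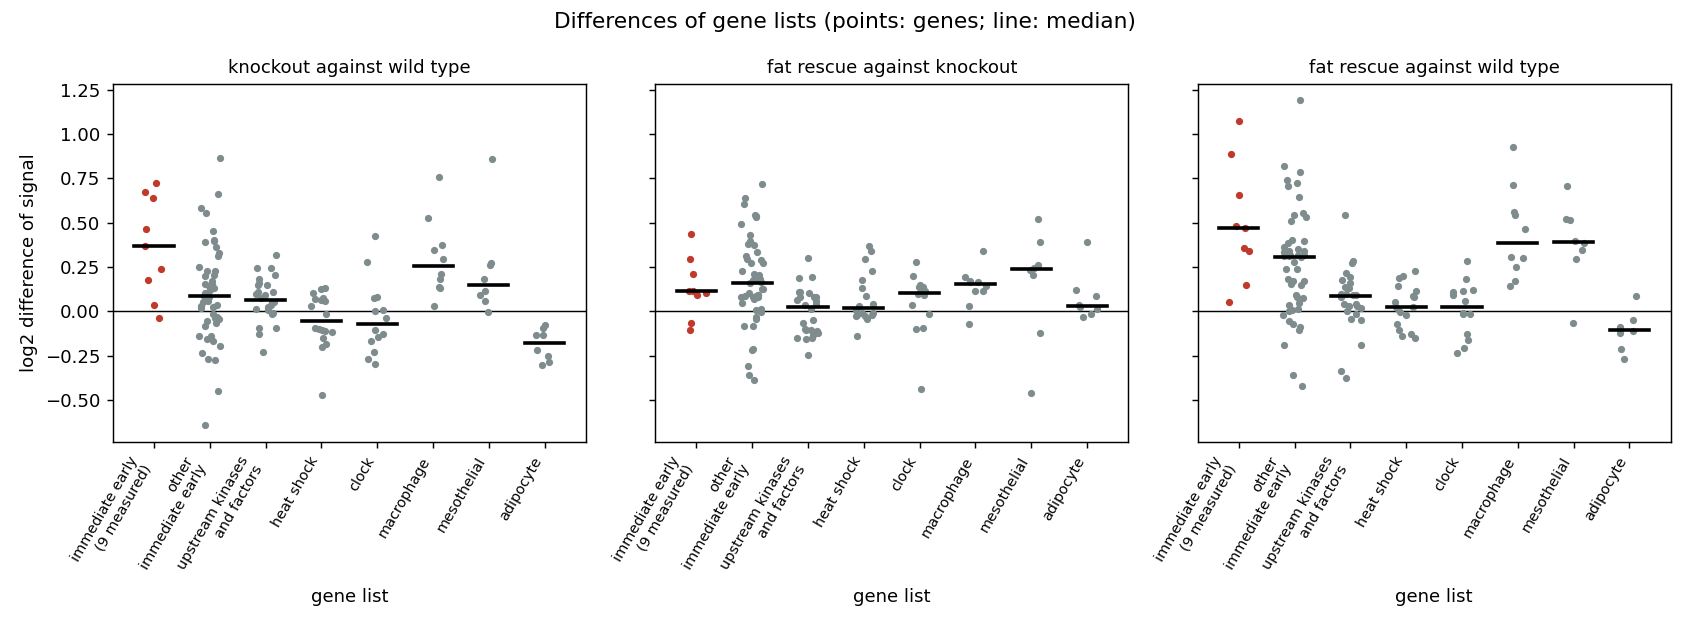
Log2 difference of signal of every measured gene of 8 lists in the 3 comparisons, with points for genes and a line at the list median. The immediate early genes have medians of 0.37, 0.11 and 0.47, and the macrophage markers 0.25, 0.15 and 0.39.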

How the data were processed

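The submitters' arrays were one-colour Affymetrix arrays of total RNA, and the deposited intensity per probe set is a linear signal that the authors made with GCOS 1.3 and MAS5, per the submitters' processing notes. Whether probe sets were called present, and the genome build of the annotation, are not given in the sources used here. A single value of 0 was set to 0.1 and log2 was taken. Probe sets in the upper 60% of mean log2 signal stayed in, and the brightest of those annotated to a single gene stood for that gene (12709 genes). One limma fit (version 3.58.1, R 4.3.3, eBayes with a trend) over all 11 arrays gave a mean per genotype, and p was adjusted by Benjamini-Hochberg over all genes. Correlations within genotypes used deviations from genotype means, with all 3456 orders of arrays within genotypes as permutations. Pooled correlations used 100000 permutations. The steps were tested on simulated data. Every member is named, and of each other list up to 4 genes with the smallest unadjusted p. The members, lists and tests were chosen with earlier results of these data known. Alternatives were other normalizations, filters, probe set rules and fits, the replicate block, and leaving out arrays. The number of arrays limits precision.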

Additional observations from a re-analysis of the deposited data

Results flagged for a closer look

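Of 22 groups of 4 arrays (a probe set in wild type or knockout), 3 held an array far from the others, where chance gives about 1 in 20. Fos in wild-type array 1 read 285.2, beside 131.6 to 150.2 in the other wild-type arrays. Jun, with its brighter probe set, read 1289.8 in knockout array 4, beside 856.9 to 904.5. Nr4a1 read 137.7 in knockout array 2, beside 188.9 to 201.5. The ratios were 0.8291 for Fos, 0.868 for Jun and 0.8304 for Nr4a1, so Fos and Nr4a1 were at the edge of the rule. Fat rescue, with 3 arrays, was not examined in this way.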

How the results depend on the processing

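The count of members past the threshold was 0 in every comparison under all alternatives run. At an unadjusted p of 0.05 the 5 members of knockout against wild type became 3 with quantile normalization, 2 with median centring and 3 to 5 when an array was left out. In fat rescue against knockout the count was 0 to 2 when an array was left out, and 1 without wild-type array 1 and fat rescue array 1. With the replicate number as a block, the unadjusted count in knockout against wild type was 4 and Junb was at 0.72 (limma adjusted p = 0.410); no member was called. The labels do not say whether a number links arrays. Deviations of same-numbered arrays from their genotype means correlated between -0.14 and 0.35, over 0.1 in 4 of 10 pairs, among them all 3 pairs of number 1, and no pairing was assumed. The median correlation was 0.41 when genotype means were kept, and -0.10 to 0.18 when an array was left out. Median centring turned Dusp1 to -0.11 in knockout and Zfp36 to -0.051 in fat rescue, both against wild type. In fat rescue against knockout the mean of the probe sets put Jun at -0.025, and leaving out wild-type array 1 and fat rescue array 1 put Nr4a1 at 0.13. When an array was left out, knockout against wild type ranged from -0.24 to 0.44 for Fos, -0.020 to 0.069 for Dusp1 and -0.11 to 0.043 for Zfp36. Likewise fat rescue against knockout ranged from -0.31 to 0.13 for Nr4a1 and -0.011 to 0.24 for Jun, and fat rescue against wild type from -0.024 to 0.14 for Zfp36. The cause of these shifts was not tested. Junb, Egr1, Ier2, Atf3 and Nr4a1 kept their direction against wild type under all alternatives, as did Jun except by its dimmer probe set. The arrays of Junb, Egr1 and Ier2 did not overlap with wild type, so leaving out arrays could not reverse their direction. With 3 or 4 arrays a genotype the number of arrays limits precision, and Fosb was too dim for an exact size.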
